A study of Mus musculus with 4 samples.

Results

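The cholesterol and fatty acid enzymes of alveolar macrophages were followed here as 46 genes, taken by gene symbol: 15 enzymes of sterol synthesis, 4 genes of sterol control and esterification, 9 of fatty acid synthesis, 16 of fatty acid oxidation and 2 of acyl-CoA handling. They stand among 11754 gene symbols in the deposited tables, of which 7236 had a count. The samples were 2 Day 21 AM libraries, from alveolar macrophages of BALB/c mice that carried lung metastases 21 days after intravenous injection of BNL cells, a mouse hepatocellular carcinoma line, and 2 Pre AM libraries, from alveolar macrophages of untreated BALB/c mice. All mice were wild type. The untreated mice are not said to have had a sham injection, and the effects of injection and of tumour growth therefore cannot be told apart. No label states that libraries of 1 group came from different animals, and the p-values accordingly reflect a spread that may be technical.

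Cells make cholesterol from acetyl-CoA through the mevalonate pathway, which runs by way of farnesyl diphosphate, squalene and lanosterol. Its genes are switched on by SREBP transcription factors, which INSIG proteins hold in the endoplasmic reticulum when sterol is plentiful, and surplus cholesterol is esterified for storage in lipid droplets. Fatty acids are built in the cytosol, and are broken down by beta-oxidation in mitochondria and, for very long chains, in peroxisomes. Alveolar macrophages take up and degrade the lipid-rich surfactant that lines the air spaces.

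Transcripts were counted with SAGE (serial analysis of gene expression). Each transcript is cut with NlaIII at CATG and counted by the 21 bases that follow a cut site, by design the site nearest its 3′ end. A transcript thus gives 1 tag whatever its length. The counts of all tags of a symbol were summed and expressed as CPM, counts per 1000000 counts of a library scaled with TMM factors. Library totals were 1783814 and 1630776 counts in Day 21 AM, and 1962569 and 2198563 counts in Pre AM. The 46 genes together took 0.331% to 0.422% of a library.

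Of the 46 genes, 45 were in the symbol column, 37 had a count in at least 1 library and 28 had counts in all 4 libraries. The low-count filter left 22 for the test across genes. A total of 15 others had counts but too few to be tested, with 4 to 38 counts over the 4 libraries against at least 33 for a tested gene. A further 8 were at 0 in every library, and Hmgcs1 was not in the symbol column.

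None of the 22 tested genes passed the threshold. With edgeR's quasi-likelihood test and Benjamini-Hochberg adjustment over 2979 genes, 0 were higher and 0 lower in Day 21 AM at an adjusted p under 0.05, where 0.739% of all tested genes passed (0.671% higher and 0.0671% lower). The adjusted p was 0.998 for each of the 22. At an unadjusted p under 0.05 the count was also 0, against 5.64% of all tested genes, and DESeq2 called 0. The standard error of a log2 change ranged from 0.538 to 1.02 with a median of 0.734, so changes of the size seen here could not be told from the spread between libraries. The fitted log2 change, Day 21 AM minus Pre AM, was above 0 in 14 genes and below 0 in 8, while 45.6% of all tested genes lay above 0. Its median was 0.25 among the 22, and -0.071 among all tested genes. With library totals alone in place of TMM factors the median of all tested genes was -0.29, and the log2 changes given here shift down with it. The libraries of the groups did not overlap for 6 of the 22, against 31.2% of all tested genes. Those 6 were Fdft1, Insig1, Soat1, Echs1 and Etfa, higher in both Day 21 AM libraries, and Acot7, lower in both.

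**Figure D1:**
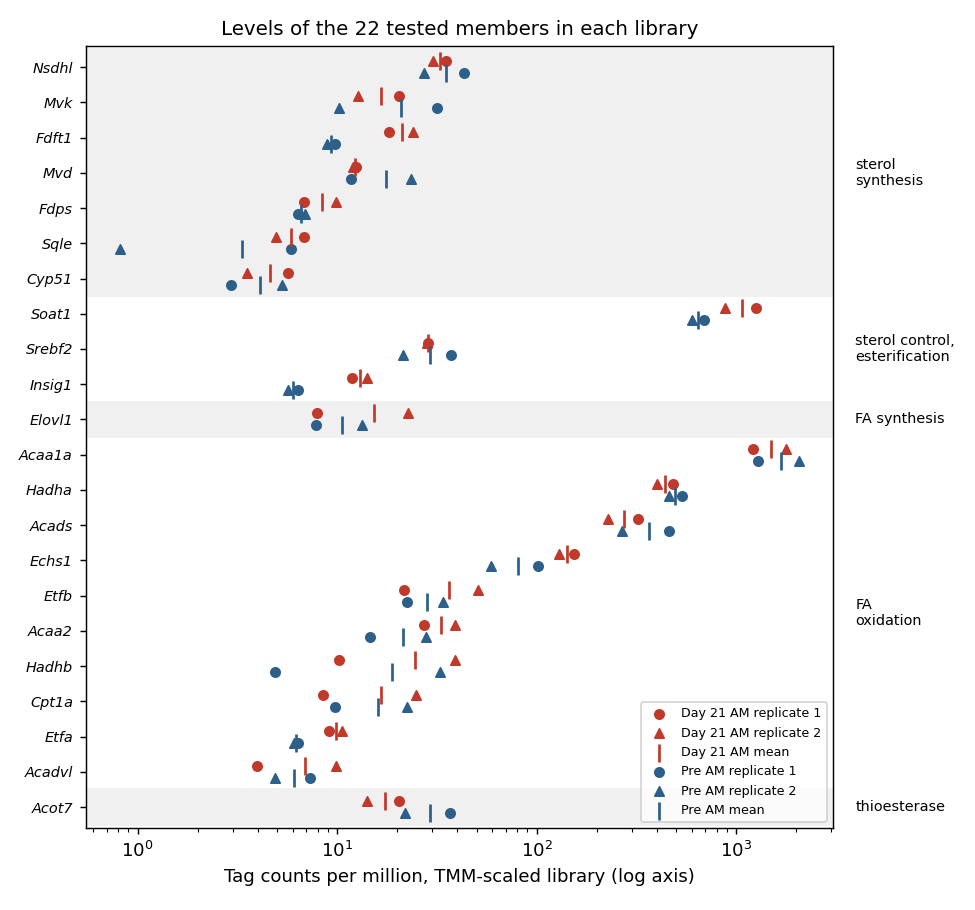
Level of each of the 22 tested genes in each library, in CPM of the TMM-scaled library on a log axis, with genes grouped by pathway; circles and triangles are replicates 1 and 2, ticks are group means, red is Day 21 AM and blue is Pre AM. Acaa1a and Soat1 stand at the right, and in most genes the points of the groups interleave.

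A few enzymes carried nearly all of the counts. Acaa1a, the peroxisomal thiolase that performs the last step of a beta-oxidation round, held 44.1% of the counts of the 46 genes. Soat1, which esterifies cholesterol, held 22.6%. Hadha, the alpha subunit of the mitochondrial trifunctional protein, held 12.9%. The next were Acads, the short-chain acyl-CoA dehydrogenase, with 8.86%, and Echs1, the short-chain enoyl-CoA hydratase, with 2.88%. These 5 genes held 91.4% of 28142 counts. By mean CPM over the 4 libraries they ranked 67, 118, 181, 253 and 557 among all symbols, while Nsdhl, the most abundant gene of cholesterol synthesis itself, ranked 1125.

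The tags that make up those counts are shown because they decide what was measured for the 5 genes. Each was placed by an exact match to GENCODE M21 transcripts (GRCm38), and capitals mark the NlaIII site.
Acaa1a main tag: CATGtgcatcgggactgggatggga
Acaa1a tag in the 3′ UTR: CATGggacaccctggttgcaaagcc
Soat1 main tag: CATGgcttgctcttcttagtctttc
Soat1 tag in the 3′ UTR: CATGgcacagtcactttggtggttt
Hadha main tag: CATGttaagggggagccccactgtg
Acads main tag: CATGagccctcggaggcaagaacac
Echs1 main tag: CATGgcgtggcctgcagccttcacc

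The Acaa1a main tag lies at chr9:119349976-119350000 on the plus strand, in the coding part of exon 12 of 12. It is also found in transcripts of Acaa1b, a near-identical paralogue, so its counts cannot be assigned to Acaa1a alone. The Soat1 main tag lies at chr1:156441318-156441342 on the minus strand, in coding exon 7 of 16. It is NlaIII site 25 of 30 counted from the 3′ end of the longest coding transcript, 7496 bases from that end. It held 95.0% of the Soat1 counts. The Hadha main tag lies at chr5:30119594-30119618 on the minus strand, in the 3′ UTR at site 6 of 17, and held 93.5% of the counts. The Acads main tag lies at chr5:115110497-115110521 on the minus strand, in the 3′ UTR at the last site, and held 99.6%. The Echs1 main tag lies at chr7:140106149-140106173 on the minus strand, in the 3′ UTR at site 2 of 5, and held 94.7%. The main tags of Acaa1a, Soat1, Hadha and Echs1 are each the last site of another annotated transcript of the gene. Among all 37 genes with counts, the most abundant tag sat at the last site of the longest coding transcript in 14 and further up in 23, of which 11 were at the last site of another transcript.

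**Figure D2:**
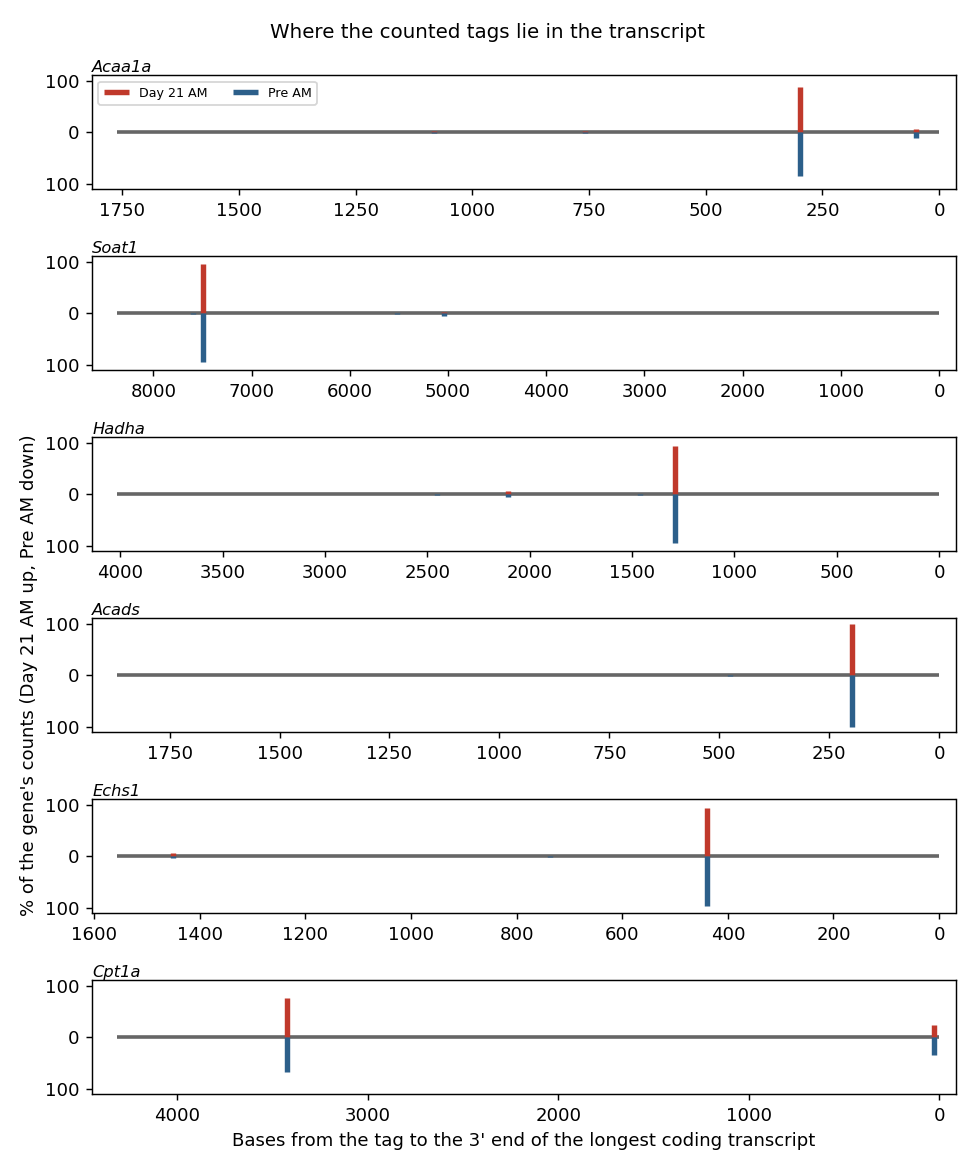
Position of the counted tags of 6 genes along the longest coding transcript (x axis, bases to its 3′ end), with the height of a line giving the tag's percent of the gene's counts in the group, upward for Day 21 AM in red and downward for Pre AM in blue. A single tag dominates in Soat1, Hadha, Acads and Echs1, in Soat1 at 7496 bases from the end.

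In cholesterol synthesis, 7 of 15 genes could be tested, 4 with a log2 change above 0 and 3 below, with none past the threshold. The median was 0.17, but -0.049 with library totals alone. With only the most abundant tag of each gene it was -0.26, over 4 of the 7 genes. Cyp51, Fdps and Sqle, with log2 changes of 0.17, 0.32 and 0.85 in the main fit, were not in that fit. These medians are therefore of different genes. The summed level of the 14 genes in the symbol column was 123 and 119.6 CPM in Day 21 AM, and 125 and 105 CPM in Pre AM, which overlapped.

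Hmgcs1, which makes HMG-CoA at the entry to the pathway, had no row of its own. A tag filed under a predicted locus, whose deposited annotation names Hmgcs1 and whose bases match the last site of that gene, had 3 and 0 counts in Day 21 AM, and 4 and 2 counts in Pre AM. Mvk, the kinase that phosphorylates mevalonate, stood at 20.4 and 12.7 CPM in Day 21 AM, and 31.7 and 10.2 CPM in Pre AM, where a single Pre AM library was the highest of the 4. Mvd, the decarboxylase that yields isopentenyl diphosphate, had 12.5 and 12.0 CPM in Day 21 AM, and 11.7 and 23.6 CPM in Pre AM. Both genes overlapped between groups, with log2 changes of -0.32 ± 0.75 for Mvk and -0.53 ± 0.74 for Mvd (SE). Between these steps, Pmvk, which adds the second phosphate, had 8 and 18 counts in Day 21 AM, and 7 and 5 counts in Pre AM, and was not tested. Idi1, the isopentenyl diphosphate isomerase, was listed at 0 in all 4 libraries, through 1 tag that is not at its last site.

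Fdft1, squalene synthase, takes farnesyl diphosphate into the sterol branch and had the largest log2 change of the 22. It measured 18.2 and 24.1 CPM in Day 21 AM, and 9.76 and 8.93 CPM in Pre AM, and its groups did not overlap. Its log2 change was 1.17 ± 0.73 (SE), a 2.25-fold higher level in Day 21 AM, with a p of 0.122 and an adjusted p of 0.998 in edgeR's quasi-likelihood test. The change ranged from 0.99 to 1.41 when each library was left out in turn. The last-site tag of its longest coding transcript was not listed, and 0 of its counts were at that site. Its main tag, with 65.7% of the counts, lies at site 11 of 15 from the 3′ end. A tag at site 8, with 32.4%, also matches a predicted gene, so the level of Fdft1 is uncertain too. Fdps, which makes farnesyl diphosphate, had 6.81 and 9.91 CPM in Day 21 AM, and 6.35 and 6.90 CPM in Pre AM, with overlapping groups. Both of its larger tags also match predicted genes, so its level is uncertain.

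Sqle, squalene epoxidase and a rate-limiting enzyme of the pathway, had 6.81 and 4.95 CPM in Day 21 AM, and 5.86 and 0.812 CPM in Pre AM. The second Pre AM library stood apart with 2 counts, and the log2 change of 0.85 carried the largest error, 1.02 (SE). Leaving out single libraries moved it between 0.037 and 2.77. The main Sqle tag, with 84.8% of the counts, lies at site 8 of 8 from the 3′ end. The last-site tag had 0 and 0 counts in Day 21 AM, and 3 and 2 counts in Pre AM.

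Past squalene, most genes had counts near the lower limit of detection. The last-site tag of the longest coding transcript was not listed for Nsdhl, Cyp51, Lss and Hsd17b7. Their counts come from other sites and may understate their levels. Nsdhl, which helps remove the methyl groups of lanosterol, was the most abundant with 35.2 and 30.4 CPM in Day 21 AM, and 43.4 and 27.2 CPM in Pre AM, and a log2 change of -0.10 ± 0.68 (SE). Cyp51, the lanosterol demethylase, had 5.68 and 3.54 CPM in Day 21 AM, and 2.93 and 5.28 CPM in Pre AM. Lss, which closes squalene epoxide into lanosterol, had 8 and 6 counts in Day 21 AM, and 2 and 15 counts in Pre AM. Sc4mol, the methylsterol oxidase, Hsd17b7, the sterol ketoreductase, and Dhcr7, the reductase of the last step, had at most 13 counts in any library and overlapped between groups.

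Ebp, the sterol isomerase, was also too low for the test but had counts in Pre AM alone. It had 0 and 0 counts in Day 21 AM, and 6 and 18 counts in Pre AM. If spread evenly over its 3 listed tags, a level of up to 6.43 counts in a library would still be read as 0 with a probability of 5% or more, and tags read once are missing from the tables. With all counts in 1 tag the limit is 4.74. The lower Pre AM count lies between these limits, and no fold was computed. With no filter on low counts the adjusted p was 0.0860, and with a filter of 5 counts in 2 libraries it was 0.433 (edgeR's quasi-likelihood test). The values of Ebp, Pmvk, Lss, Fdps, Cyp51, Acadvl, Acadm, Etfa, Etfb, Acaa2 and Hadhb are given although the rule for named genes does not call for them, and these genes were chosen after their values were seen.

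The genes of sterol control and esterification number 4, and 3 of them were tested. Their summed level was 1296 and 926 CPM in Day 21 AM, and 733 and 628 CPM in Pre AM, without overlap. Soat1 made up nearly all of it, and without Soat1 the sum averaged 43.2 ± 4.02 CPM in Day 21 AM and 35.3 ± 11.5 CPM in Pre AM (SD, n = 2 each), with overlapping libraries.

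Soat1 had 1256 and 880.5 CPM in Day 21 AM, and 689.7 and 601 CPM in Pre AM. Both Day 21 AM libraries lay above both Pre AM libraries, but the Day 21 AM libraries lay further from each other than the lower of them lay from the higher Pre AM library. The log2 change was 0.73 ± 0.55 (SE), a 1.65-fold higher level in Day 21 AM, with a p of 0.200 and an adjusted p of 0.998 in edgeR's quasi-likelihood test. The main tag, with 2123 and 1199 counts in Day 21 AM, and 1297 and 1411 counts in Pre AM, gave a log2 change of 0.75 when tags were tested singly. The 3′ UTR tag had 69 and 33 counts in Day 21 AM, and 97 and 43 counts in Pre AM, with a log2 change of -0.10. The difference between the tags was not tested.

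Insig1, the sterol-responsive anchor of SREBP, had 11.9 and 14.2 CPM in Day 21 AM, and 6.35 and 5.69 CPM in Pre AM. The groups did not overlap, and the log2 change was 1.11 ± 0.77 (SE), 2.15-fold, with a p of 0.160 and an adjusted p of 0.998 in edgeR's quasi-likelihood test. Srebf2, the factor that drives the cholesterol genes, had 28.4 and 28.3 CPM in Day 21 AM, and 37.1 and 21.5 CPM in Pre AM, which overlapped. Its log2 change was -0.046 ± 0.69 (SE) and ranged from -0.36 to 0.40 with each library left out, so a change in either direction could be missed. The last-site tag of its longest coding transcript was not listed. Srebf1, which drives fatty acid synthesis, had 0 and 5 counts in Day 21 AM, and 0 and 0 counts in Pre AM. For Srebf1 the count of 5, all in 1 tag, is under the 6.43 counts that could be missed if spread evenly over its listed tags. It is above the 4.74 counts that could be missed with 1 tag. The first Day 21 AM library had 0 counts like both Pre AM libraries, so no difference can be read from it.

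**Figure D3:**
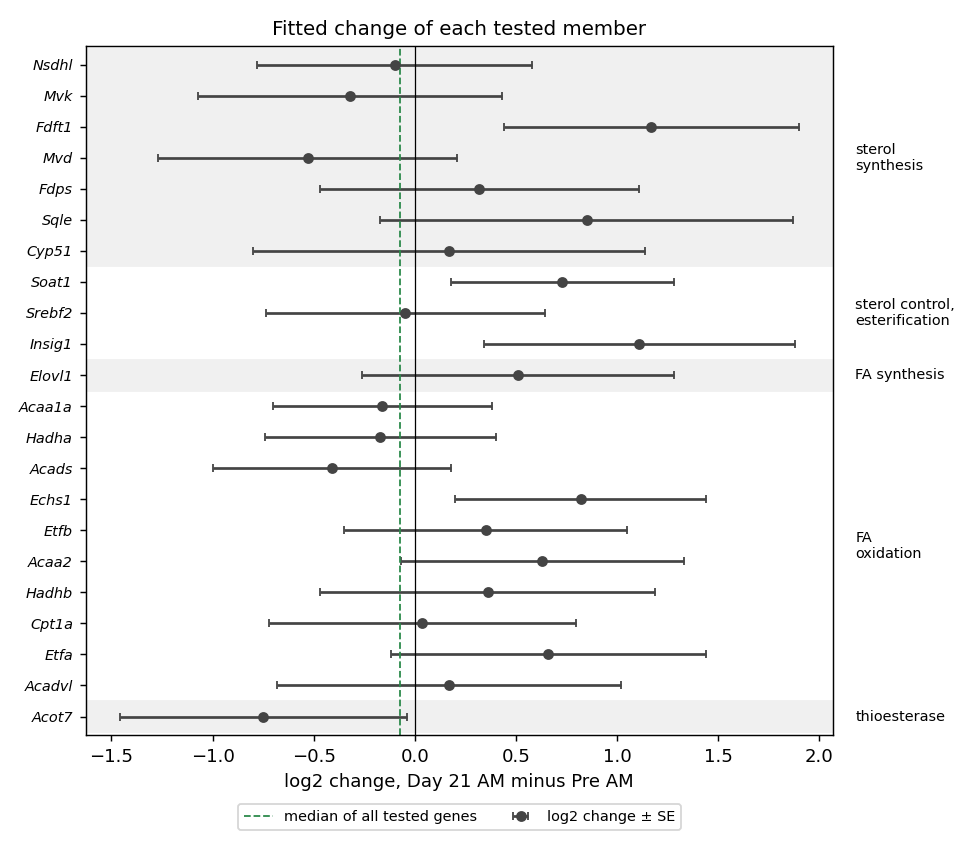
Fitted log2 change of each tested gene, Day 21 AM minus Pre AM, as a point with its standard error, grouped by pathway; the solid line is no change and the dashed line is the median of all tested genes, -0.071. Fdft1 has the largest value, 1.17, and Acot7 the smallest, -0.75.

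Fatty acid synthesis was the least detected pathway. Of its 9 genes, 4 had counts and 5 were listed at 0 in all 4 libraries. The 5 were Acaca, the acetyl-CoA carboxylase that commits carbon to fatty acids, the stearoyl-CoA desaturases Scd1 and Scd2, the elongase Elovl6 and the desaturase Fads2. The tag at the last NlaIII site was listed for Acaca, Scd1 and Scd2, so those were looked for at the intended position. For Elovl6 and Fads2 the last-site tag of the longest coding transcript was not listed and was not analysed here, though both listed Elovl6 tags are at the last site of other Elovl6 transcripts. A level of up to 4.74 counts in a library for Acaca, with 1 listed tag, and up to 9.46 counts for Scd1, if spread evenly over 9 listed tags, could be read as 0 in this way.

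Elovl1, an elongase of very long chains, was the only gene of fatty acid synthesis that could be tested. It had 7.95 and 22.6 CPM in Day 21 AM, and 7.81 and 13.4 CPM in Pre AM, with overlapping groups and a log2 change of 0.51 ± 0.77 (SE). The second replicate was higher than the first in both groups. Fasn, the fatty acid synthase, had 3 and 4 counts in Day 21 AM, and 4 and 11 counts in Pre AM. The last-site tag of the longest coding transcript was not listed for Fasn or Elovl1, so their levels may be understated. Their main tags are at the last site of other transcripts of these genes. Elovl5, an elongase of polyunsaturated chains, had 2 and 0 counts in Day 21 AM, and 4 and 8 counts in Pre AM. Fads1, the delta-5 desaturase that completes arachidonic acid, had 8 and 6 counts in Day 21 AM, and 0 and 0 counts in Pre AM. Its last-site tag was listed at 0 in every library, and its counts came from sites 5 and 6 of 19 from the 3′ end. The adjusted p of Fads1 was 0.149 with no filter and 0.415 with the filter of 5 counts in 2 libraries (edgeR's quasi-likelihood test), and 1 of its Day 21 AM counts was below the limit of 6.43 for an even spread over its tags.

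In fatty acid oxidation, 15 of 16 genes had counts and 10 were tested. Of these, 7 had a log2 change above 0 and 3 below, with none past the threshold. The median was 0.26, but -0.36 without Day 21 AM replicate 2 and -0.0073 with library totals alone. The summed level was 2266 and 2729 CPM in Day 21 AM, and 2465 and 2995 CPM in Pre AM. Without Acaa1a it was 1045 and 939.9 CPM in Day 21 AM, and 1171 and 929.6 CPM in Pre AM, and both sums overlapped between groups.

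The peroxisomal thiolase Acaa1a had 1221 and 1789 CPM in Day 21 AM, and 1294 and 2066 CPM in Pre AM. The second replicate was the higher one in both groups, and the log2 change of -0.16 ± 0.54 (SE) was small beside that spread. Acaa1b, which shares the main tag, had 513 and 202 CPM in Day 21 AM, and 820.5 and 509 CPM in Pre AM under its own symbol. The sum of both was 1734 and 1991 CPM in Day 21 AM, and 2114 and 2575 CPM in Pre AM, and it does not depend on how the authors divided their tags. The sums did not overlap, which was true of 31.2% of all tested genes. The Acaa1a 3′ UTR tag, at the last site of the longest transcript and found in no other gene, held 11.5% and 3.48% of the Acaa1a counts in Day 21 AM, and 20.1% and 7.59% in Pre AM. Tested singly, it had a log2 change of -1.07 ± 0.68 (SE) and a p of 0.140, with an adjusted p of 0.999 (edgeR's quasi-likelihood test over 3907 tags).

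The mitochondrial enzymes came next. Hadha had 482 and 401 CPM in Day 21 AM, and 533 and 461 CPM in Pre AM, with a log2 change of -0.17 ± 0.57 (SE). Hadhb, the beta subunit of the same complex, was far lower, with 10.2 and 38.9 CPM in Day 21 AM, and 4.88 and 32.9 CPM in Pre AM. The subunits thus stood in a ratio that changed from library to library, and the order of replicates in Hadhb, second above first, was the opposite of that in Hadha. The main Hadhb tag also matches a predicted gene. The last site of the longest coding Hadhb transcript lies too near its end to give a full tag. The level of Hadhb may therefore be understated, and the ratio of the subunits is uncertain.

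Acads had 321 and 229 CPM in Day 21 AM, and 461 and 268 CPM in Pre AM, with overlapping groups and a log2 change of -0.41 ± 0.59 (SE). The dehydrogenases of longer chains were much lower. Acadvl, for very long chains, had 3.98 and 9.91 CPM in Day 21 AM, and 7.32 and 4.87 CPM in Pre AM. Acadl, for long chains, had 4 and 5 counts in Day 21 AM, and 8 and 7 counts in Pre AM. The last-site tag of its longest coding transcript was not listed, so its level may be understated. Acadm, for medium chains, had 2 and 2 counts in Day 21 AM, and 7 and 13 counts in Pre AM, without overlap but too low to test.

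Echs1, which hydrates the double bond that a dehydrogenase leaves, had 154 and 129.5 CPM in Day 21 AM, and 102 and 59.3 CPM in Pre AM. All Day 21 AM values lay above the Pre AM ones, with a log2 change of 0.82 ± 0.62 (SE), 1.76-fold, a p of 0.203 and an adjusted p of 0.998 in edgeR's quasi-likelihood test. It ranged from 0.50 to 1.26 with each library left out. Acads and Hadha had fitted changes of the opposite sign, and this contrast between genes was not tested.

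Cpt1a, the carnitine transferase that controls entry of fatty acids into mitochondria, had 8.52 and 24.8 CPM in Day 21 AM, and 9.76 and 22.3 CPM in Pre AM. The replicates of a group differed more than the groups did, and the log2 change was 0.037 ± 0.76 (SE). Its main tag, with 70.4% of the counts, starts in exon 7 of 19 at site 18 of 27 from the 3′ end. Its partner Cpt2, which works inside the mitochondrion, was listed at 0 in all libraries, with its last-site tag listed. Etfa and Etfb, the subunits of the flavoprotein that takes electrons from the dehydrogenases, had log2 changes of 0.66 ± 0.78 and 0.35 ± 0.70 (SE). Etfa had 9.09 and 10.6 CPM in Day 21 AM, and 6.35 and 6.09 CPM in Pre AM, without overlap. Etfb had 21.6 and 51.0 CPM in Day 21 AM, and 22.5 and 34.1 CPM in Pre AM, and a tag shared with a predicted gene held most of its counts. Acaa2, the mitochondrial thiolase, had 27.3 and 38.9 CPM in Day 21 AM, and 14.6 and 28.0 CPM in Pre AM, with a log2 change of 0.63 ± 0.70 (SE) that was 0.24 without Pre AM replicate 1 and 1.20 without Pre AM replicate 2. Hadh, the short-chain hydroxyacyl-CoA dehydrogenase, and the auxiliary enzymes Eci1 and Decr1, which handle unsaturated chains, had at most 6 counts in any library.

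Acot7, a thioesterase that releases fatty acids from their CoA esters, was the tested gene with the lowest log2 change. It had 20.4 and 14.2 CPM in Day 21 AM, and 36.6 and 21.9 CPM in Pre AM, without overlap. The log2 change was -0.75 ± 0.71 (SE), a 1.68-fold lower level in Day 21 AM, with a p of 0.301 and an adjusted p of 0.998 in edgeR's quasi-likelihood test. It was -1.05 without Pre AM replicate 2 and -0.33 without Pre AM replicate 1, where Mvd, at -0.94, was lower. Acsl4, the ligase that activates arachidonic acid, was listed at 0 in all libraries. Its last site lies too near the transcript end to give a full tag, so 0 says little about its level.

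A feature that the gene sums hide was the place of the tags. For 11 tested genes there were counts both at the last NlaIII site of the longest coding transcript and at other sites. The share of counts at the last site was on average lower in Day 21 AM for 10 of the 11, and lower without overlap for 6. Several of these 6 rest on few counts, and no library holds a count of 1. The last site had 0 and 0 counts in Day 21 AM, and 3 and 2 in Pre AM for Sqle. For Insig1 it had 8 and 4 counts in Day 21 AM, and 10 and 10 in Pre AM. The other tags of Etfa had 5 and 4 counts in Day 21 AM, and 0 and 0 in Pre AM. Across all tested genes with both kinds of tag and counts in every library, the mean share was lower in Day 21 AM in 71.1% of 1258 genes, and lower without overlap in 26.2%. The median difference was -11.2 percentage points among the 11 and -3.58 among the 1258. A lower share was thus also common outside the lipid enzymes. The median share of the 1258 genes was 53.8% and 37.4% in Day 21 AM, and 66.7% and 52.3% in Pre AM, so that the second Day 21 AM library was lowest and the first overlapped with Pre AM. When the last site of any coding transcript was counted, an alternative added after seeing the data, 68.8% of the 1258 genes and 9 of the 11 had a lower share in Day 21 AM. Over summed counts, in which a few abundant genes dominate, the share was 89.8% and 86.1% in Day 21 AM, and 91.1% and 84.1% in Pre AM, and overlapped.

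Insig1 and Fdps are given as examples, chosen after their values were seen, and their tags are shown because the mean level was lower in Day 21 AM at the last site and higher at the other sites.
Insig1 tag at the last site: CATGtccgtgctaagtttgcagcat
Insig1 tag in exon 1: CATGattgcggcggccgcttgtccg
Fdps tag at the last site: CATGgaacttgcaaacaagatctac
Fdps tag in exon 5: CATGgactcttccctcactcgccgg

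The Insig1 last-site tag lies at chr5:28078586-28078610 on the plus strand, in the 3′ UTR, 52 bases from the transcript end. The exon 1 tag lies at chr5:28071512-28071536 on the plus strand, in coding sequence. The Fdps tags lie on the minus strand at chr3:89093658-89093682 and chr3:89095623-89095647, both in coding sequence. Both also match predicted genes, so the split of counts between these sites may not be that of Fdps alone. The last-site level of Insig1 was 4.54 and 2.83 CPM in Day 21 AM, and 4.88 and 4.06 CPM in Pre AM, which overlapped, while the other sites gave 7.38 and 11.3 CPM in Day 21 AM, and 1.46 and 1.62 CPM in Pre AM. The higher Insig1 level in Day 21 AM thus came from tags other than the last one. For Fdps the last site gave 2.27 and 3.54 CPM in Day 21 AM, and 5.37 and 4.47 CPM in Pre AM, and the other site gave 4.54 and 6.37 CPM in Day 21 AM, and 0.976 and 2.44 CPM in Pre AM. Etfa differed from both, with overlapping levels at the last site of 6.25 and 7.79 CPM in Day 21 AM, and 6.35 and 6.09 CPM in Pre AM, and a higher mean there in Day 21 AM. Its other tags had 2.84 and 2.83 CPM in Day 21 AM, and 0 and 0 CPM in Pre AM.

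Among the 11 genes, the mean last-site level was higher in Day 21 AM in 3, and the mean level of the other tags was higher in 9. Over the 32 genes with counts other than the 5 most abundant, the last site gave 74.4 and 70.1 CPM in Day 21 AM, and 99.6 and 91.8 CPM in Pre AM. The other tags gave 212 and 319.9 CPM in Day 21 AM, and 192 and 225 CPM in Pre AM. They include all counts of genes whose last-site tag was not listed, such as Nsdhl, Srebf2 and Fdft1. The sums for the last site and for the other tags thus come in part from different genes. When tags were tested singly, 31 tags of these genes were among 3907 tested, 0 passed an adjusted p under 0.05 where 0.358% of all tags did, and 0 had an unadjusted p under 0.05 (edgeR's quasi-likelihood test, with a smallest p of 0.109). The part of tag position in the levels given above was not tested.

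**Figure D4:**
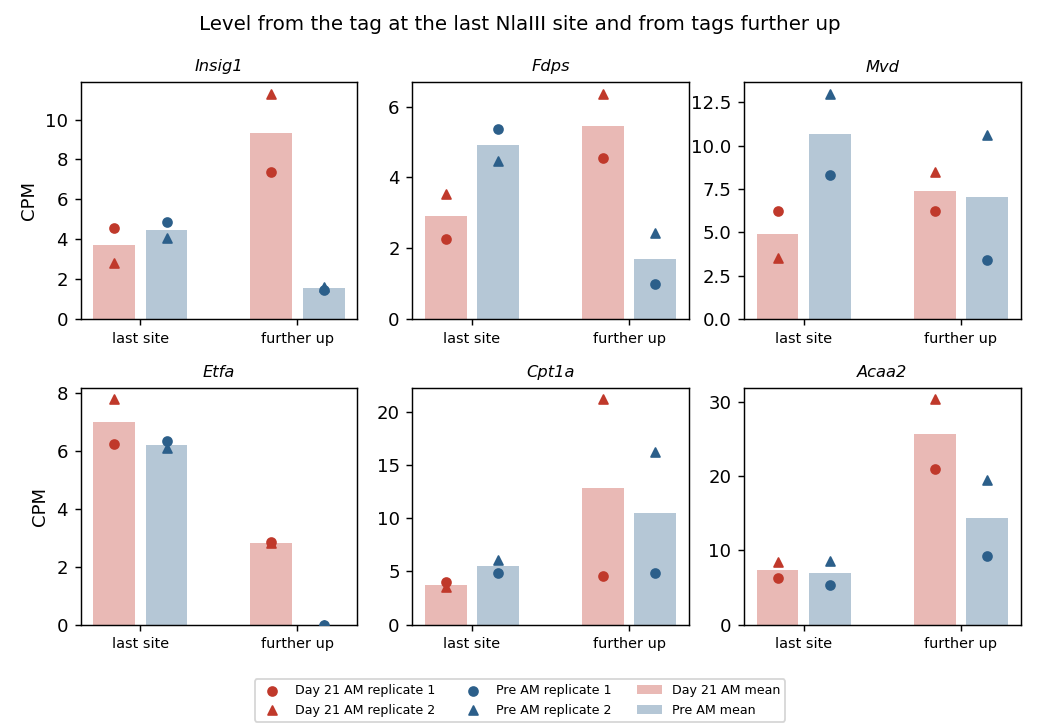
Level in CPM from the tag at the last NlaIII site of the longest coding transcript and from all tags further up, for 6 genes; bars start at 0 and give the group mean, points are the libraries, red is Day 21 AM and blue is Pre AM. In Insig1 and Fdps the Day 21 AM mean is below the Pre AM mean at the last site and above it further up, where Insig1 has 7.38 and 11.3 CPM in Day 21 AM. The Fdps tags also match predicted genes.

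Other genes of the same pathways were read from a list of 84, of which 66 were listed, 51 had counts and 23 were tested. None passed the threshold with edgeR's quasi-likelihood test, 1 was higher at an unadjusted p under 0.05, and DESeq2 called 0. A single gene of 23 is no more than the 5.64% of all tested genes with such a p. That gene was Ch25h, which hydroxylates cholesterol to an oxysterol that represses SREBP processing. It had 12.5 and 23.4 CPM in Day 21 AM, and 1.95 and 3.66 CPM in Pre AM, without overlap. Its log2 change was 2.63 ± 0.83 (SE), 6.18-fold, with a p of 0.00401 and an adjusted p of 0.225 in edgeR's quasi-likelihood test, and it stayed between 2.15 and 3.17 with each library left out.

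Apart from Acaa1b, the most abundant of the 84 were the lysosomal genes that free and export cholesterol. Lipa, the acid lipase that cleaves cholesteryl esters, had 519.6 and 610.1 CPM in Day 21 AM, and 278 and 439.8 CPM in Pre AM. Npc2, which carries cholesterol out of lysosomes, had 94.8 and 159 CPM in Day 21 AM, and 48.3 and 86.1 CPM in Pre AM. Neither overlapped between groups, with log2 changes of 0.65 ± 0.58 and 0.91 ± 0.64 (SE) that did not pass. Of the other sterol genes, 7 of 10 tested had a log2 change above 0 with a median of 0.41, and of the other oxidation genes 3 of 9 had, with a median of -0.20.

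Markers of other macrophages differed between the groups. Of 10 markers of monocyte-derived and interstitial macrophages, 9 were listed and had counts, and 5 of 6 tested ones rose (edgeR's quasi-likelihood test, adjusted p under 0.05). Their summed level was 2145 and 3244 CPM in Day 21 AM, and 49.8 and 111 CPM in Pre AM. C1qa, C1qb and C1qc were among the 9 listed markers and were at 0 in both Pre AM libraries. Of 12 alveolar macrophage markers, 10 were listed and 9 had counts, led by Chi3l3 and Ear2, with a summed level of 1438 and 3579 CPM in Day 21 AM, and 689.7 and 2229.6 CPM in Pre AM, which overlapped. Fabp4 was at 0 and Marco had 2 counts in all. Chi3l3, Ear2, Car4, Ear1 and Pparg overlapped between groups, with 1041 and 2758 CPM in Day 21 AM, and 328 and 1186 CPM in Pre AM for Chi3l3. Itgax, Siglec5 and Mrc1 were lower in both Day 21 AM libraries than in both Pre AM libraries. Of all tested genes, 31.2% did not overlap between groups. Itgax had 36.3 and 50.3 CPM in Day 21 AM, and 65.4 and 74.3 CPM in Pre AM. Siglec5 had 21.0 and 19.8 CPM in Day 21 AM, and 27.3 and 37.0 CPM in Pre AM, and Mrc1 had 6.81 and 7.08 CPM in Day 21 AM, and 8.30 and 15.4 CPM in Pre AM. None of the 8 tested alveolar markers passed the threshold. Neutrophil markers summed to 75.5 and 274 CPM in Day 21 AM, and 10.7 and 156 CPM in Pre AM, which overlapped. Most of that sum was Camp alone, with 68.7 and 249 CPM in Day 21 AM, and 9.27 and 139 CPM in Pre AM. The 5 listed lymphocyte markers were at 0. Of 8 liver and hepatocellular carcinoma markers 3 were listed. H19 was at 0 in all libraries and Afp had 0 and 0 counts in Day 21 AM, and 0 and 3 counts in Pre AM. Trf, the transferrin gene, was abundant in both groups, with 40599.8 and 40694 CPM in Day 21 AM, and 41179 and 26389 CPM in Pre AM, which overlapped. Of the 6 listed lung epithelial markers, Sftpa1, Krt8, Krt18 and Foxj1 were at 0 and Scgb1a1 had 5 counts in 1 Pre AM library. Their sum, nearly all Epcam, came to 19.3 and 4.95 CPM in Day 21 AM, and 53.2 and 28.8 CPM in Pre AM. The part of these markers in the levels of the lipid enzymes was not tested. In such bulk samples fewer cells of a type and less RNA per cell cannot be told apart, nor can more cells of a type and a higher level in the same cells.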

How the data were processed

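Raw tag counts were deposited by the authors as one table per library, with 30627 tags of 21 bases, each with a gene symbol, per the file headers. The genome build named is mm9, per the submitters' processing notes. Which tool assigned the tags, and with what filter, is not given in the sources used here. No library holds a count of 1. Tags were summed per deposited symbol and tested with edgeR 4.0.16 in R 4.3.3 (quasi-likelihood test, TMM, filterByExpr with a minimum count of 10 and a total of 15, group as the only term, Benjamini-Hochberg adjustment over 2979 genes, threshold 0.05). DESeq2 1.42.0, other scalings, filters and gene definitions, single tags and leaving out each library were the alternatives. Tags, with CATG, were matched to GENCODE M21 (GRCm38), the source of all coordinates. Floors are the counts at which all listed tags stay at 0 or 1 reads with a probability of 5%, and cover counting error only, since PCR copies were not told apart. Named genes were all 46, with values per library for the 4 most abundant of each pathway and for control points. The enzymes and lists were chosen with earlier results of these data known.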

Additional observations from a re-analysis of the deposited data

How the results depend on the processing

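The count of lipid genes past the threshold was 0 in every alternative run in edgeR and in DESeq2, single tags included. The smallest adjusted p of a tested one was 0.176, for Hadhb without Pre AM replicate 2. The count over all genes, 22, moved to 9 with total counts only, 41 with no filter, 10 with at least 5 counts in 2 libraries, 9 with the most abundant tag of each symbol, and 9 to 81 with each library left out. The replicate numbers are not said to pair libraries, though the deviations of same-numbered libraries correlated at 0.54, and the fit with a replicate block called 37 genes and 0 lipid genes. The sterol synthesis median of 0.17 was -0.049 with total counts only, where the median of all genes was -0.29. With the most abundant tag it was -0.26, but over 4 genes in place of 7, without Cyp51, Fdps and Sqle. The fatty acid synthesis median of 0.51 is the value of Elovl1 alone, as is its range of -0.38 to 1.14 with a library left out. With no filter it was -0.50 over Elovl1, Fasn and Elovl5. Fads1 was not in that median because genes with 0 counts in a whole group were left out. The oxidation median of 0.26 was -0.36 to 0.74 with a library left out. The cause was not tested. Of 303 single-gene values, 278 kept their direction, and 25 in 12 genes turned. With total counts only, Acadvl was -0.069, Cpt1a -0.24 and Cyp51 -0.049. With upper-quartile factors Srebf2 was 0.0088, and with the replicate block Cpt1a was -0.0024. With a library left out, the range was -0.45 to 0.25 for Acaa1a, -0.18 to 0.67 for Cyp51, -0.36 to 0.40 for Srebf2, -0.57 to 0.75 for Acadvl, -0.88 to 0.78 for Cpt1a, -0.38 to 1.14 for Elovl1, -0.36 to 0.90 for Etfb, -0.86 to 2.34 for Hadhb, -0.90 to 0.71 for Mvk, -0.38 to 0.27 for Nsdhl, -0.72 to 0.04 for Acads and -0.94 to 0.091 for Mvd. A group left with 1 library was assumed to vary like the other. With 2 libraries a group, most genes of fatty acid synthesis were at or near the detection limit.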
